A study of Mus musculus with 12 samples.

Results

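The IFIT and IFITM antiviral families were followed across an experiment on EML1 cells, a multipotent mouse progenitor line (male BDF1 bone marrow, made with the retrovirus LRARalpha403SN). The members were 8 genes chosen by symbol, Ifit1, Ifit2, Ifit3, Ifitm1, Ifitm2, Ifitm3, Ifitm5 and Ifitm6, out of 18820 genes that the platform annotation names. Each was read by 1 probe set, the one with the highest mean log2 intensity over the 12 arrays. The 6 groups had 2 arrays each. TEL-AML1 cells carried that fusion (ETV6-RUNX1, of childhood B-cell precursor leukaemia) in the lentiviral vector pWPI, and were measured untreated and after 5 and 7 days of IL7 and FLT3L. Empty-vector cells carried pWPI alone and were measured at the same 3 times. All cells therefore shared the LRARalpha403SN and pWPI vectors. Per the culture protocol in the labels, differentiation took place on a confluent layer of OP9 stromal cells with 10 ng/ml of IL7 and 80 ng/ml of FLT3L, and both the medium and the serum were changed. A treated array thus differs from an untreated one by cytokines, stroma, medium and serum together, and the titles name only the cytokines. Nothing in the labels says if the 2 replicates of a group came from separate cultures, or if the transduced cells were clones, so p-values measure the spread between arrays, which may be technical.

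IFIT and IFITM genes belong to the effectors that interferons switch on. Type I interferon signals through its receptor and the kinases JAK1 and TYK2 to ISGF3, a transcription factor complex that holds STAT2 and IRF9 and binds the interferon-stimulated response element in promoters of such genes. IFIT proteins are cytosolic and bind foreign RNA, while IFITM proteins sit in membranes and hinder the entry of viruses. In mouse and human, stem and progenitor cells can hold some of these transcripts without any infection.

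The 3 IFIT members lie on chromosome 19 and the 5 IFITM members on chromosome 7. By their order in GRCm38.p6, the IFITM members follow each other as Ifitm5, Ifitm2, Ifitm1, Ifitm3 and Ifitm6 with 0 other protein-coding genes between them. The IFIT stretch runs Ifit2, Ifit3, Ifit3b, Ifit1bl2 and Ifit1. All 8 members had a promoter window in the RefSeq table (GRCm38.p6), 250 bases before to 50 bases after a start site. These windows were searched on both strands for the core letters of the response element, GAAANNGAAA, which read TTTCNNTTTC on the other strand. Of 32851 windows of that length, 3.44% held a match. The windows of the 3 members that changed with treatment and of Ifitm2, which did not pass the test, are shown because these 4 were the members with a match, drawn in capitals.
Ifit1, chr19:34640639-34640938, + strand: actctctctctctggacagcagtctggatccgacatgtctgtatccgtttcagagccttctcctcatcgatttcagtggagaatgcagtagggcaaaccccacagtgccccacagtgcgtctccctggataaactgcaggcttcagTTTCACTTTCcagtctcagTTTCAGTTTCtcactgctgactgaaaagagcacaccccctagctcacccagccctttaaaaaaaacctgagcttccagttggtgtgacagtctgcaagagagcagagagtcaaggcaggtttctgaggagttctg
Ifit3, chr19:34583279-34583578, + strand: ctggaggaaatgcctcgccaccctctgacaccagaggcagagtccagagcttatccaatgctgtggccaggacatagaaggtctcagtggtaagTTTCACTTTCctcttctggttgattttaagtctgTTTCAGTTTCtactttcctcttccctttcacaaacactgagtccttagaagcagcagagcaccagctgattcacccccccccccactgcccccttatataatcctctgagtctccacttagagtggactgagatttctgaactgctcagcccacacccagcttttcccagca
Ifitm3, chr7:141010695-141010994, - strand: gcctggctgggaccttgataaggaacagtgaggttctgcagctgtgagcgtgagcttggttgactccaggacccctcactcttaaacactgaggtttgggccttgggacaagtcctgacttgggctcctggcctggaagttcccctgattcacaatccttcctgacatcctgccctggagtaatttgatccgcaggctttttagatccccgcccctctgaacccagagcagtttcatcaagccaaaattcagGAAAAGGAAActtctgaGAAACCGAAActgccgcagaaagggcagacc
Ifitm2, chr7:140955912-140956211, - strand: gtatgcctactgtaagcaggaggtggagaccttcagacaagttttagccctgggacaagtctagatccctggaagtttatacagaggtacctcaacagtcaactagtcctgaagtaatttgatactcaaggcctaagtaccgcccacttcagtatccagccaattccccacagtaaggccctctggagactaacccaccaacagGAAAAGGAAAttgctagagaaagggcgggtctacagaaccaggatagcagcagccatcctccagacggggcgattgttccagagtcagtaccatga
Ifit1 and Ifit3 each held 2 matches, with the same letters in both genes, TTTCACTTTC and TTTCAGTTTC. Ifitm3 held GAAAAGGAAA and GAAACCGAAA, both after the annotated start, and Ifitm2 held GAAAAGGAAA before it. The windows of Ifitm1, Ifitm5 and Ifitm6 and both windows of Ifit2 held no match, which says only that these letters are not in these stretches.

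The arrays were close in scale, with median intensities between 68.1 and 72.9, and replicates correlated at 0.981 to 0.997 across the 12337 tested genes. The progenitor label was borne out by Kit (2186 to 2744 over all arrays), Cd34 (1928 to 2565) and Ptprc (654 to 983), while Flt3, the receptor of FLT3L, stayed at 45.3 to 55.9, below the filter, a mean intensity of 60.1 that a gene had to pass to be tested. Of the 8 members, 6 passed it and Ifit2 and Ifitm6 did not. Genes of stroma were present on treated arrays in unequal amounts. The summed intensity of 19 stroma markers lay between 2231 and 2402 on untreated, 3562 and 7716 on day 5 and 2278 and 4056 on day 7 TEL-AML1 arrays. It lay between 1955 and 2005 on untreated, 6749 and 9090 on day 5 and 2460 and 5458 on day 7 empty-vector arrays. A large part of the untreated sums was Pdgfrb, at 1262 and 1170 on TEL-AML1 and 917 and 891 on empty-vector arrays. Over all 12 arrays it ranged from 776 to 1323, so the sums of untreated arrays do not measure stromal RNA alone. Of the 14 tested stroma markers, 12 were called higher than untreated at day 5 and 2 at day 7 with the empty vector, and 0 at either time with TEL-AML1. Monocyte and macrophage markers summed to between 657 and 775 in every group, with Cd14 at 39.1 to 44.9. Not all of them were level or dim. Lyz2 ranged from 81.5 to 190, highest on a day 7 TEL-AML1 array, and Cd68 from 100 to 205, highest on an untreated TEL-AML1 array. Of the granulocyte markers, S100a8 stayed at 39.2 to 46.2, while Mpo, which progenitors also express, stood at 2551 to 3549.

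**Figure D1:**
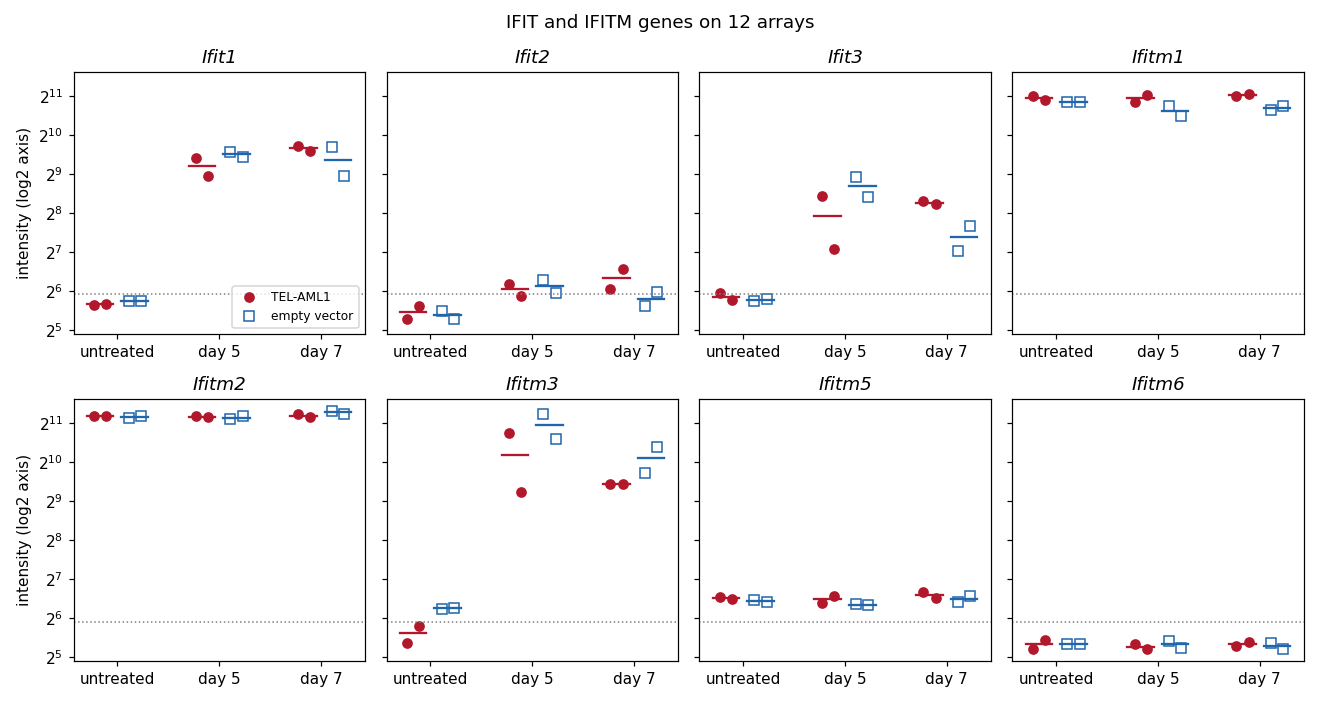
Intensity of the 8 members on each of 12 arrays, on a log2 axis, for TEL-AML1 cells (filled circles) and empty-vector cells (open squares), with a bar at each group mean and a dotted line at the filter intensity of 60.1. Ifit1, Ifit3 and Ifitm3 stand higher on all 8 treated arrays than on the 4 untreated ones, while Ifitm1 and Ifitm2 stay above 1400 throughout.

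In each of the 4 comparisons of treated with untreated cells, 3 of the 6 tested members were called higher and 0 lower, at a limma p under 0.05 after Benjamini-Hochberg adjustment over all tested genes. With TEL-AML1, 1.17% of all tested genes were called higher and 0.438% lower at day 5, and 4.77% higher and 3.08% lower at day 7. With the empty vector, 8.45% were called higher and 7.16% lower at day 5, and 6.29% higher and 9.19% lower at day 7. The 3 members were always Ifit1, Ifit3 and Ifitm3. Within a vector, both times were set against the same 2 untreated arrays. The median difference of the 6 tested members, on the log2(intensity + 16) scale, was 0.84 at day 5 and 1.11 at day 7 with TEL-AML1, and 1.29 at day 5 and 0.73 at day 7 with the empty vector. The medians over all tested genes lay between -0.01 and 0.01. Ifit1 and Ifit3 averaged below the filter without treatment and were tested because of their treated arrays. Ifitm3 averaged 48.7 on untreated TEL-AML1 arrays, also below the filter, and 75.9 on untreated empty-vector arrays. These counts therefore only describe the members. The stroma markers moved with treatment as well, and how much of the member signal came from RNA of OP9 cells was not tested.

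For none of these 3 did a treated array come down to the level of an untreated one. For this and other statements that arrays lie apart, the share of all tested genes was not computed. They only describe the members. Ifit1, whose protein binds RNA with foreign 5′ ends, stood at 50.1 and 50.7 on untreated, 682 and 490 on day 5 and 841 and 772 on day 7 TEL-AML1 arrays. On empty-vector arrays it stood at 53.6 and 53.3 untreated, 759 and 695 at day 5 and 821 and 497 at day 7. It therefore left the dim end of the array on every treated array. On the same log2 scale, day 5 minus untreated was 3.16 ± 0.20 (SE) with TEL-AML1 and 3.42 ± 0.20 with the empty vector. Day 7 minus untreated was 3.63 ± 0.20 and 3.24 ± 0.20 in the same order, and the 4 adjusted p-values of limma lay between 3.91e-06 and 1.65e-05. In bulk RNA, a transcript from more cells and a higher level per cell cannot be told apart.

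Ifitm3, which encodes the family's main barrier to viruses that enter through endosomes, showed the widest range of the members. It stood at 41.3 and 56.0 on untreated, 1736 and 606 on day 5 and 701 and 702 on day 7 TEL-AML1 arrays. Empty-vector arrays had 74.9 and 76.8 untreated, 2441 and 1542 at day 5 and 851 and 1346 at day 7. Its lowest treated array lay far above its highest untreated array, but replicates at day 5 were far apart. Day 5 minus untreated was 4.02 ± 0.40 with TEL-AML1 (limma adjusted p = 0.000394) and 4.41 ± 0.40 with the empty vector (adjusted p = 0.000165). Day 7 minus untreated was 3.48 ± 0.40 with TEL-AML1 (limma adjusted p = 0.000768) and 3.56 ± 0.40 with the empty vector (adjusted p = 0.000766).

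Ifit3, a partner of other IFIT proteins on RNA, moved less and less evenly. On TEL-AML1 arrays it had 61.0 and 54.4 untreated, 349 and 135 at day 5 and 316 and 299 at day 7. On empty-vector arrays it had 53.4 and 55.6 untreated, 489 and 342 at day 5 and 131 and 201 at day 7. The group means, highest first, were the empty vector at day 5 (415 ± 105, SD, n = 2), TEL-AML1 at day 7 (308 ± 12.5), TEL-AML1 at day 5 (242 ± 151) and the empty vector at day 7 (166 ± 50.0). The arrays of TEL-AML1 at day 5 overlapped those of every other treated group. Treated minus untreated was 1.67 ± 0.34 at day 5 (limma adjusted p = 0.0383) and 2.14 ± 0.34 at day 7 (adjusted p = 0.00485) with TEL-AML1. With the empty vector it was 2.59 ± 0.34 at day 5 (limma adjusted p = 0.00179) and 1.34 ± 0.34 at day 7 (adjusted p = 0.0252). The day 5 call with TEL-AML1 ended without any 1 of 9 of the 12 arrays (limma adjusted p up to 0.307), and without TEL-AML1 day 5 replicate 1 the difference was 1.04. The day 7 call of the empty vector ended without any 1 of its 4 arrays (adjusted p up to 0.128), and that of TEL-AML1 without its untreated replicate 2 (adjusted p = 0.0542). Whether the probe set also reads Ifit3b, a close copy of Ifit3, was not tested.

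Ifit2, the third IFIT gene, was dim and did not enter the test, because its mean intensity of 59.4 fell just short of the filter at 60.1, while the dimmest member inside it, Ifitm5, averaged 89.1. Its values were 38.6 and 48.6 on untreated, 72.4 and 58.7 on day 5 and 65.8 and 94.5 on day 7 TEL-AML1 arrays. Empty-vector arrays had 44.8 and 38.9 untreated, 77.6 and 61.1 at day 5 and 48.8 and 62.7 at day 7. All 8 treated arrays lay above all 4 untreated ones, by little in the case of the empty vector at day 7. With no filter, so that 18820 genes were tested, the largest of its 4 differences was 0.68 ± 0.17 for TEL-AML1 at day 7 (limma adjusted p = 0.0529). The smallest was 0.31 ± 0.17 for the empty vector at day 7 (limma adjusted p = 0.337).

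Ifitm1 and Ifitm2, which mouse progenitor and germ cells can express without infection, were bright at all times. Ifitm2 ranged only from 2197 to 2551 over the 12 arrays, and its 4 treated minus untreated differences lay between -0.02 and 0.12 (SE 0.07, limma adjusted p = 0.284 to 0.989). Its other 2 probe sets ranged from 2010 to 2344. Ifitm1 had 2047 and 1906 on untreated, 1847 and 2107 on day 5 and 2066 and 2134 on day 7 TEL-AML1 arrays. On empty-vector arrays it had 1834 and 1835 untreated, 1731 and 1432 at day 5 and 1598 and 1706 at day 7. All 4 treated empty-vector arrays lay below the untreated pair, whereas those of TEL-AML1 spanned theirs. The differences for the empty vector, -0.22 ± 0.10 at day 5 and -0.15 ± 0.10 at day 7, did not pass (limma adjusted p = 0.182 and 0.345), nor did those for TEL-AML1, 0.00 ± 0.10 and 0.09 ± 0.10 (adjusted p = 0.998 and 0.715). A further probe set of Ifitm1 ranged from 1347 to 2219.

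The remaining members showed little. Ifitm5, known for its role in bone-forming cells, ranged from 80.2 to 101 over the 12 arrays, and its 4 treated minus untreated differences lay between -0.08 and 0.07 (SE 0.08, limma adjusted p = 0.57 to 0.945). Ifitm6 ranged from 36.6 to 43.6, below the filter, and no group stood apart from the others. With no filter, its differences lay between -0.04 and 0.00. Among genes of the same families outside the member list, Ifitm7 ranged from 66.7 to 80.6 and Ifitm10 from 63.9 to 75.7. Ifit3b ranged from 35.3 to 58.3 and Ifit1bl2 from 44.3 to 57.4.

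**Figure D2:**
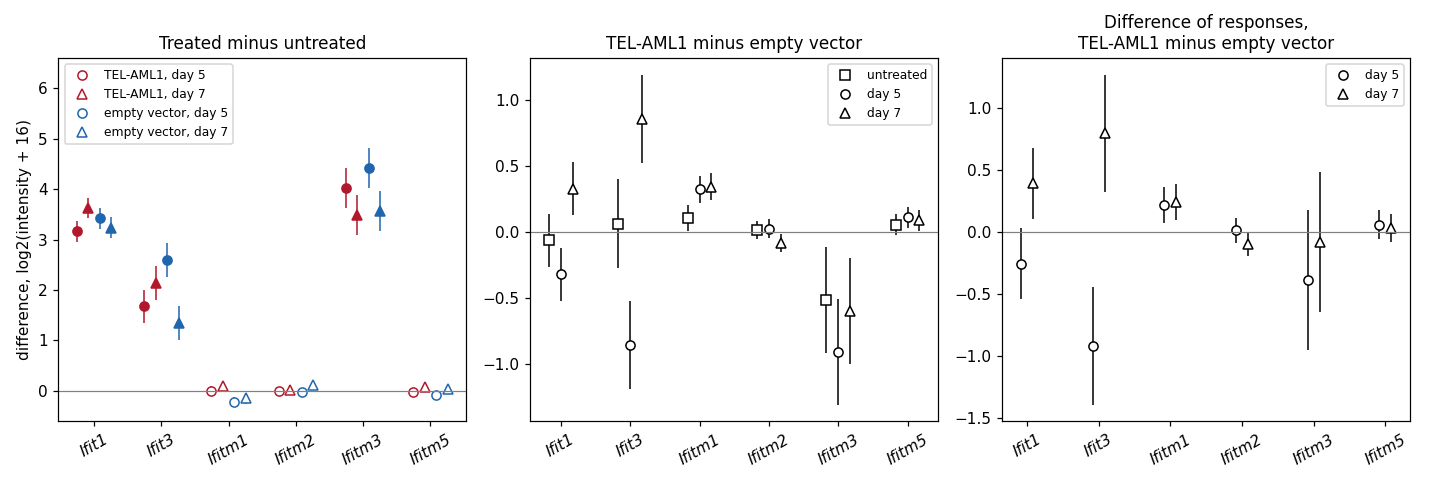
Differences of the 6 tested members on the log2(intensity + 16) scale with their standard errors, for treated minus untreated cells (left), TEL-AML1 minus empty vector (middle) and the difference between the vectors' responses (right). Filled symbols have a limma adjusted p under 0.05. Those symbols belong to Ifit1, Ifit3 and Ifitm3 in the left panel, between 1.34 and 4.41.

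Whether TEL-AML1 alters these genes was asked at each time. Between the vectors 0 of the 6 tested members passed at any of the 3 times (limma, Benjamini-Hochberg), while of all tested genes 8.9% passed without treatment, 7.32% on day 5 and 11.3% on day 7. At an unadjusted p under 0.05 the counts of members were 0, 3 and 2 in the same order. The share of all tested genes at that unadjusted threshold was not computed. These 3 counts cannot be set against the adjusted shares and only describe the members. Same-numbered arrays of the 2 vectors deviated together within each condition, and a fit that blocked on these pairs (the replicate block) passed 2 members at day 5 and 1 at day 7. In that fit calls among all tested genes were 1838 in place of 903 at day 5 and 2215 in place of 1392 at day 7. Ifit3 lay on opposite sides at the 2 treated times. At day 5 it averaged 242 ± 151 with TEL-AML1 and 415 ± 105 with the empty vector, a difference of -0.86 ± 0.34 (limma adjusted p = 0.177). At day 7 it averaged 308 ± 12.5 with TEL-AML1 and 166 ± 50.0 with the empty vector, a difference of 0.86 ± 0.34 (adjusted p = 0.144). With the replicate block both passed, at limma adjusted p = 0.025 at day 5 and 0.021 at day 7. Both also depend on arrays. The day 5 difference was -1.49 without TEL-AML1 day 5 replicate 1 (limma adjusted p = 0.00767) and -0.22 without replicate 2 (adjusted p = 0.691). The day 7 difference was 0.57 without empty-vector day 7 replicate 1 (limma adjusted p = 0.459) and passed without either TEL-AML1 day 5 array (adjusted p = 0.0183), at the same size of difference.

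Ifitm3 averaged lower with TEL-AML1 at each time, with differences of -0.52 ± 0.40 untreated, -0.91 ± 0.40 at day 5 and -0.60 ± 0.40 at day 7, and none of these differences passed (limma adjusted p = 0.602, 0.232 and 0.414). With the replicate block the day 5 difference did (limma adjusted p = 0.0258). The median difference of the 14 tested stroma markers was also below 0 on treated arrays, at -0.58 at day 5 and -0.38 at day 7. At each of these times 0 of the 14 were called lower and 1 was called higher with TEL-AML1. With the stromal mean of each array as a covariate, the difference of Ifitm3 was -0.47 ± 0.31 at day 5 and -0.23 ± 0.30 at day 7 (limma adjusted p = 0.388 and 0.663). In untreated cells the arrays did not overlap, with 41.3 and 56.0 for TEL-AML1 against 74.9 and 76.8 for the empty vector, all at the dim end. The SE of 0.40 is shared over the 6 groups. When only the 2 untreated groups were fitted, the difference was -0.52 ± 0.10 and passed (limma adjusted p = 0.0109). Calls among all tested genes in that fit were 2374 in place of 1098. Without TEL-AML1 day 5 replicate 1, the array with the higher stromal level of its pair, the day 5 difference was -1.65 (limma adjusted p = 0.0132), and without replicate 2 it was -0.16 (adjusted p = 0.823). The day 7 difference was -0.27 without empty-vector day 7 replicate 2 and -0.93 without replicate 1. Ifitm1 was higher with TEL-AML1 on all arrays of each time, by 0.11 ± 0.10 untreated, 0.32 ± 0.10 at day 5 and 0.34 ± 0.10 at day 7 (limma adjusted p = 0.704, 0.0923 and 0.0559). Its day 7 difference passed with the mean of its probe sets (0.38 ± 0.10, limma adjusted p = 0.0398). It also passed with a trended and robust variance (limma adjusted p = 0.0314), the 60th percentile filter (0.0467) or a pseudocount of 64 (0.0422). Without empty-vector day 5 replicate 1 the day 5 difference was 0.46 (limma adjusted p = 0.0324), and without either empty-vector day 5 array the day 7 difference passed (adjusted p = 0.0289). Ifit1 differed by -0.06 ± 0.20, -0.32 ± 0.20 and 0.33 ± 0.20 at the 3 times (limma adjusted p = 0.954, 0.408 and 0.369). Its day 7 difference was 0.68 without empty-vector day 7 replicate 1 (limma adjusted p = 0.0305) and -0.03 without replicate 2. Ifitm2 and Ifitm5 stayed within 0.11 of 0 at every time.

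The response to treatment was also compared between the vectors, as the TEL-AML1 response minus the empty-vector response. For 0 of the 6 tested members did it pass at either time, also at an unadjusted p under 0.05. Of all tested genes, 0.0324% passed at day 5 and 0.0811% at day 7 after adjustment. Their share at an unadjusted p under 0.05 was not computed. The fit behind these counts leaves out the pairing of same-numbered arrays. The replicate block within each condition was not run for the difference of responses. Whether any member would pass with that block, adjusted or unadjusted, was not tested. The widest values were those of Ifit3, -0.92 ± 0.47 at day 5 and 0.79 ± 0.47 at day 7 (limma adjusted p = 0.67 and 0.652).

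The members were then set against stromal RNA over the 8 treated arrays, with the mean log2(intensity + 16) of Fn1, Bgn and Col1a1, genes of extracellular matrix, as its measure. This mean was 6.36 to 6.47 on untreated arrays. On treated arrays it was 9.97 and 8.27 at day 5 and 6.88 and 8.62 at day 7 with TEL-AML1, and 10.4 and 9.91 at day 5 and 7.75 and 9.48 at day 7 with the empty vector. TEL-AML1 day 7 replicate 1 was the treated array nearest to the untreated ones.

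On that array Ifit1 stood at 841, its highest value of all 12, Ifit3 at 316 and Ifitm3 at 701. Empty-vector day 5 replicate 1, which had the most stromal signal, carried the highest values of Ifit3 (489) and Ifitm3 (2441) and an Ifit1 of 759. The 3 members that rose therefore differed in how they lay along the stromal measure.

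Ifitm3 lay highest where stromal RNA was highest, with Pearson's r = 0.87 over 8 arrays (exact permutation p = 0.00843, two-sided) and Spearman's rho = 0.88 (exact permutation p = 0.00724). Adjusted over the 8 relations computed, these p-values were 0.0675 and 0.0579. Without the 2 arrays farthest from the median of the stromal measure, r was 0.87. Within day 7 TEL-AML1 cells the 2 arrays differed in the stromal mean, at 6.88 and 8.62, and had Ifitm3 at 701 and 702.

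Ifit3 had r = 0.53 (exact permutation p = 0.179, adjusted 0.357) and rho = 0.74 (exact permutation p = 0.0458, adjusted 0.122), and without the 2 farthest arrays r was 0.82. Ifit1 had r = -0.26 (exact permutation p = 0.515, adjusted 0.589) and rho = -0.43 (exact permutation p = 0.299, adjusted 0.399), and r = -0.17 without those 2. Ifitm5 ran the other way, with r = -0.73 (exact permutation p = 0.0431, adjusted 0.172) and rho = -0.76 (exact permutation p = 0.0368, adjusted 0.122), but its r was -0.41 without the 2 farthest arrays. For the other 4 members r lay between -0.58 and 0.32. The 8 arrays fall into 4 groups of 2, so that time and vector move with the stromal mean, and each array shares its labelled RNA between both measures. The permutation p-values treat the 8 arrays as independent, although same-numbered arrays of the 2 vectors deviated together within each condition. These p-values can therefore be too small.

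With the stromal mean of each array as a covariate in the fit, the 3 members parted. With TEL-AML1, calls among all tested genes went from 198 to 63 at day 5 and from 968 to 1238 at day 7. With the empty vector they went from 1926 to 159 and from 1910 to 2106. The covariate's slope comes from arrays of the same group and is carried over the wider step from untreated to treated arrays. Treated minus untreated for Ifit1 was 3.34 ± 0.32 at day 5 and 3.71 ± 0.23 at day 7 with TEL-AML1, and 3.66 ± 0.40 at day 5 and 3.38 ± 0.29 at day 7 with the empty vector (limma adjusted p up to 0.00437). For Ifitm3 the values were 2.86 ± 0.45 and 2.91 ± 0.33 with TEL-AML1, and 2.80 ± 0.56 and 2.61 ± 0.40 with the empty vector, all smaller than without the covariate and all still called (limma adjusted p = 0.000852 to 0.0479). Ifit3 was called at day 7 with TEL-AML1, at 1.67 ± 0.28 (limma adjusted p = 0.00684), but at 0.72 ± 0.38 at day 5 with TEL-AML1, 1.26 ± 0.48 at day 5 and 0.55 ± 0.34 at day 7 with the empty vector it no longer was (adjusted p = 0.474, 0.163 and 0.287). In the same fit Ifit3 was higher with TEL-AML1 than with the empty vector at day 7, by 1.16 ± 0.26 (limma adjusted p = 0.015), while its day 5 difference was -0.50 ± 0.26 (adjusted p = 0.284).

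**Figure D3:**
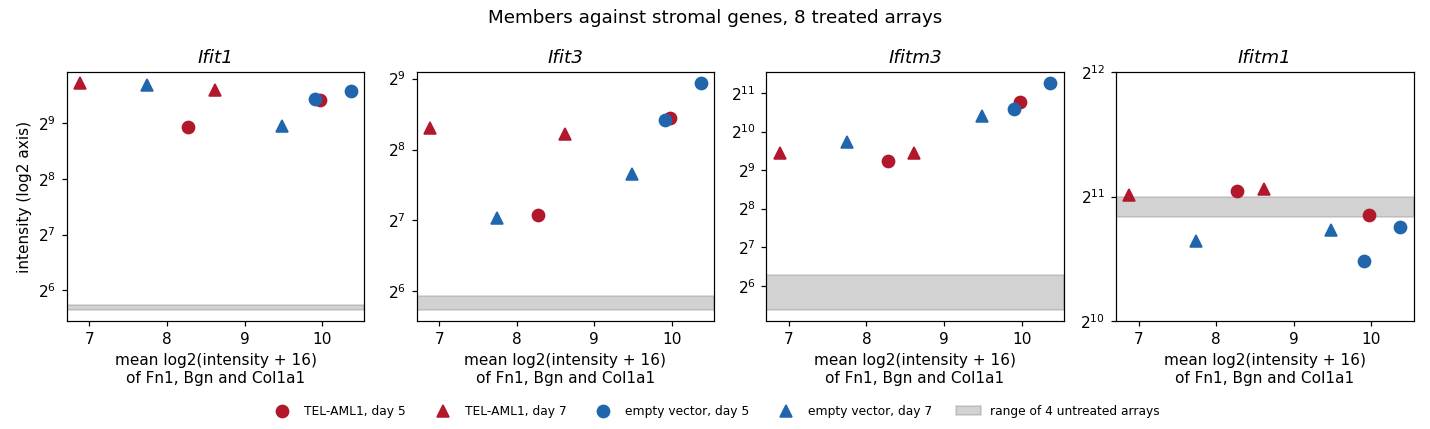
Intensity of Ifit1, Ifit3, Ifitm3 and Ifitm1 (log2 axes, each panel with its own range) against the stromal mean of Fn1, Bgn and Col1a1 on the 8 treated arrays, with the range of the 4 untreated arrays in grey. Ifitm3 climbs with the stromal mean (r = 0.87) and Ifit1 does not (r = -0.26). The array with the lowest stromal mean, 6.88 against 6.36 to 6.47 on untreated arrays, has Ifit1, Ifit3 and Ifitm3 above the grey band.

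Other genes of the interferon pathway gave the setting. Of 43 listed genes, 40 had a named probe set and 36 were tested. With TEL-AML1, 19 were called higher at day 5 and 23 at day 7, and with the empty vector 22 at day 5 and 19 at day 7, and 0 were lower in any of the 4. With the stromal covariate the counts higher were 15, 22, 11 and 18 in the same order, and 0, 1, 0 and 1 were lower. Calls among all tested genes in that fit, in either direction, were 63 in place of 198, 1238 in place of 968, 159 in place of 1926 and 2106 in place of 1910. The median over the list was 0.78 and 0.93 with TEL-AML1 and 0.77 and 0.57 with the empty vector. Some listed genes, such as Cmpk2 and Mx2, averaged below the filter without treatment and were tested because of their treated arrays, so these counts only describe the list.

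The interferon ligand genes Ifnb1 (41.2 to 60.3) and Ifna4 (35.9 to 42.7) had mean intensities below the filter, and the type I receptor chain gene Ifnar1 had treated minus untreated differences between -0.05 and 0.10 (limma adjusted p = 0.562 to 0.972). Of the 9 tested receptors, kinases and ISGF3 genes, 1 was called higher at day 5 and 3 at day 7 with TEL-AML1, and 2 at day 5 and 1 at day 7 with the empty vector. Irf9, the DNA-binding part of ISGF3, was called each time, at 1.05 ± 0.09 and 1.24 ± 0.09 with TEL-AML1 and 1.03 ± 0.09 and 1.10 ± 0.09 with the empty vector (limma adjusted p up to 0.000107). Stat2, its partner, was called at day 7 with TEL-AML1 (0.70 ± 0.16) and at day 5 with the empty vector (0.80 ± 0.16).

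Among 5 regulatory factors, Irf7, which amplifies the type I response, was called in all 4 comparisons. Its differences were 3.02 ± 0.10 at day 5 and 3.22 ± 0.10 at day 7 with TEL-AML1, and 2.80 ± 0.10 at day 5 and 2.67 ± 0.10 at day 7 with the empty vector. Of 22 tested effector, sensor and feedback genes, 17 were called higher at day 5 and 18 at day 7 with TEL-AML1, and 19 at day 5 and 17 at day 7 with the empty vector. Usp18, which removes ISG15 and damps the receptor, differed by 4.07 ± 0.21 and 4.25 ± 0.21 with TEL-AML1 and by 3.74 ± 0.21 and 3.74 ± 0.21 with the empty vector. Rsad2, the antiviral enzyme viperin, differed by 1.11 ± 0.13 and 2.19 ± 0.13 with TEL-AML1 and by 1.14 ± 0.13 and 0.79 ± 0.13 with the empty vector. Mx1, a GTPase against RNA viruses, was called only at day 7 with TEL-AML1 (0.61 ± 0.13, limma adjusted p = 0.022), and its response there minus that of the empty vector was 0.25 ± 0.19 (adjusted p = 0.72). Isg15 itself ranged from 37.7 to 74.6 and was not tested.

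Between the vectors, 3 of the 36 tested pathway genes were higher and 2 lower with TEL-AML1 in untreated cells, 3 higher and 0 lower at day 5, and 9 higher and 0 lower at day 7. Of all tested genes, 2.74% were higher and 6.16% lower in untreated cells, 3.04% higher and 4.28% lower at day 5, and 5.28% higher and 6% lower at day 7. Ifngr1 and Ifngr2, the receptor chains for interferon gamma, were among the higher ones each time. At day 7 Ifngr1 averaged higher by 1.15 ± 0.12 and Ifngr2 by 1.14 ± 0.15 (limma adjusted p = 0.000309 and 0.000892). Rsad2 was higher by 1.56 ± 0.13 at day 7 (limma adjusted p = 9.65e-05), and its response differed between the vectors by 1.39 ± 0.19 (adjusted p = 0.0318). It was the 1 pathway gene called for the day 7 difference of responses, where 0.0811% of all tested genes passed. That count ranged from 0 to 2 over the alternatives. It was 0 with quantile normalization, with no filter or when only the groups compared were fitted. It was 2 with a pseudocount of 1, the 60th percentile filter, array weights or the replicate block over all arrays. The count also changed with single arrays left out, so the call of Rsad2 here depends on the setting. Between the vectors at day 7, the count of pathway genes higher with TEL-AML1 ranged from 4 to 15 over the alternatives, with 15 under the replicate block. Under that block 3 were higher and 3 lower in untreated cells, and 3 higher and 2 lower at day 5. Calls among all tested genes in that fit were 1491 in untreated cells, in place of 1098.

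**Figure D4:**
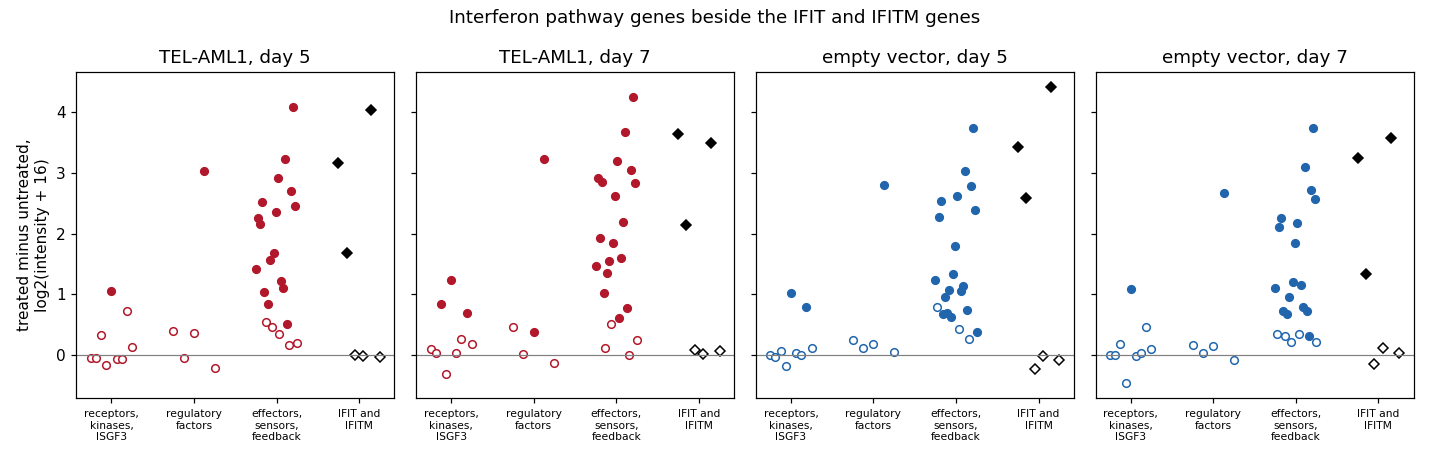
Treated minus untreated differences on the log2(intensity + 16) scale for 36 tested interferon pathway genes by role (circles) and for the 6 tested IFIT and IFITM members (black diamonds), in 4 comparisons. Filled symbols have a limma adjusted p under 0.05. Ifit1, Ifit3 and Ifitm3 are called in each panel, with Ifitm3 above every effector in the panel of the empty vector at day 5 (4.41), and Ifitm1, Ifitm2 and Ifitm5 lie near 0.

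For each tested member, the 3 genes with the most similar course over the 12 arrays were taken by Pearson's r among all other tested genes, as a description. For Ifit1 these were Trim30a, Trim30d and Trim34a, genes of one TRIM family, each with r = 0.996. For Ifitm3 they were Psmb9, a subunit of the immunoproteasome (r = 0.98), the RNA sensor gene Oas1b (0.98) and the helicase gene Helz2 (0.97). For Ifit3 they were the cholesterol exporter gene Abca1 (0.95), the hexokinase gene Hk1 (0.94) and Nmnat2, of NAD synthesis (0.94). The nearest were Arhgap30 for Ifitm1 (0.95), Cpne5 for Ifitm2 (0.89) and Brd1 for Ifitm5 (0.87). Among the members, Ifit1 and Ifitm3 had r = 0.95, Ifit3 and Ifitm3 0.93 and Ifit1 and Ifit3 0.90, over arrays that include the step between untreated and treated cells, while Ifitm1 and Ifitm5 had 0.72.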

How the data were processed

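Total RNA was extracted with TRIzol and RNeasy columns and labelled as biotinylated cRNA by the Affymetrix procedure, per the labels' protocols. The authors deposited 1 linear intensity per probe set and array, for 35556 probe sets. Their background correction, probe summary and normalization are not given in the sources used here. Array medians differed by at most 0.0975 on the log2 scale, so the intensities were kept. By the platform annotation, 21218 probe sets had 1 gene, 1881 several and 12457 were not listed, and 21185 of the first kind matched GRCm38.p6 by Entrez identifier. A gene was tested where its mean intensity was above 60.1, the 40th percentile over the probe sets, which left 12337 genes. Values were transformed as log2(intensity + 16), which understates changes of dim genes. The 12 arrays entered 1 limma fit (version 3.58.1 in R 4.3.3) of the 6 groups, which had 6 residual degrees of freedom and a prior worth 4.22, and which was checked on simulated data. Benjamini-Hochberg adjustment ran over the tested genes of a contrast, at a threshold of 0.05. Named genes were the 8 members, the 3 genes most like each tested member, and genes of fixed interferon and marker lists. From these lists some genes beyond those named in the rule (Ifngr1, Ifngr2, Ifnar1, Ifnb1 and Ifna4) were picked after their values were seen. The members and lists were chosen with earlier results of these data known. Replicate numbers are in the labels, and whether they mark a shared batch is not stated. Deviations of same-numbered arrays correlated across genes between the vectors at 0.433 untreated, 0.543 at day 5 and 0.376 at day 7, and at -0.241 to 0.156 between conditions, so blocked values stand beside the comparisons of vectors where they change a call. Alternatives were quantile normalization, median centring, other filters, pseudocounts of 1 and 64, the mean of probe sets, array weights, a trended variance with robust estimation, a fit of only the groups compared, replicate blocks, the stromal covariate and each array left out. Precision is limited by 2 arrays a group.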

Additional observations from a re-analysis of the deposited data

How the results depend on the processing

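Of 1413 recomputed member differences, 1365 kept their call, and no called difference changed sign. The calls of Ifit1 and Ifitm3 in the 4 comparisons of treated with untreated cells held under every alternative, with limma adjusted p-values up to 0.00825 for Ifit1 and up to 0.0479 for Ifitm3. Those of Ifit3 did not: TEL-AML1 at day 5 ranged from 0.72 to 2.31 (adjusted p up to 0.474), and the empty vector at day 7 from 0.55 to 1.63 (adjusted p up to 0.287), while the empty vector at day 5 lost its call with the stromal covariate (adjusted p = 0.163) and TEL-AML1 at day 7 without 1 array (adjusted p = 0.0542). The number of members called with TEL-AML1 against the empty vector was 0 at each time. In untreated cells it was 1 (Ifitm3) when only the compared groups were fitted. At day 5 it was 2 (Ifit3 and Ifitm3) with the replicate block within each condition, 0 to 2 with each array left out, and 3 without both day 5 replicate 1 arrays, a setting chosen after seeing the data. At day 7 it was 1 (Ifitm1) with the 60th percentile filter, a pseudocount of 64, the mean of probe sets or a trended and robust variance. It was also 1 (Ifit3) with the replicate block within each condition or the stromal covariate. The day 7 count also changed with arrays left out. The members past the threshold against stromal RNA were 0 in the report, 1 (Ifitm3) with all stroma markers, and 0 to 2 with each treated array left out. The causes were not tested. The replicate block within each condition was run only for TEL-AML1 against the empty vector. It changed the calls of Ifit3 and Ifitm3 at day 5, of Ifit3 at day 7 and of no other member. The block over all arrays changed no member's call. Over all alternatives, calls among all genes ranged from 477 to 2606 (main 1098) in untreated cells, 327 to 1838 (903) at day 5 and 371 to 2215 (1392) at day 7 for TEL-AML1 against the empty vector. For treated against untreated they ranged from 63 to 469 (198) at day 5 and 200 to 2230 (968) at day 7 with TEL-AML1, and from 159 to 2451 (1926) and 290 to 2799 (1910) with the empty vector. For the difference of responses they ranged from 0 to 19 (4) at day 5 and 0 to 75 (10) at day 7. Ifit2 and Ifitm6 lie near the dim end of the arrays, where small changes cannot be measured.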
